A study of Mus musculus with 10 samples.

Results

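The aminoacyl-tRNA synthetases, the enzymes that load each tRNA with its amino acid, were examined in αTC1 cells kept for 48 h in 10 μM enzalutamide or in DMSO. All 36 listed genes were found by symbol among the 33212 genes counted: 20 for the cytosolic enzymes and 16 for the mitochondrial ones, whose symbols end in 2. Mars1, the newer name, is listed in the table under its older symbol Mars. αTC1 is a mouse glucagon-producing line from an islet tumour that SV40 T antigen caused, driven by the preproglucagon promoter, so both groups are 1 transformed line in culture. Enzalutamide is an antagonist of the androgen receptor, and the study asked what it does to these cells. The enzalutamide group and the DMSO group have 5 libraries of polyadenylated RNA each, called biological replicates in the labels, from cells in low-glucose DMEM with fetal bovine serum, penicillin and streptomycin. Neither label gives a genotype or other agent that differs between the groups.

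A synthetase recognises its amino acid and the tRNAs that decode it, and joins them at the cost of ATP. Most mammalian amino acids have separate nuclear genes for the cytosolic enzyme and for the enzyme that is imported to serve the tRNAs of the mitochondrial genome. Gars and Kars each encode both forms. Structurally the enzymes fall into class I and class II, which have unrelated catalytic folds, and several cytosolic ones are held with 3 scaffold proteins in the multi-synthetase complex. When tRNAs stay uncharged, the kinase GCN2 (Eif2ak4) phosphorylates eIF2α, translation of the transcription factor ATF4 goes up, and several cytosolic synthetase genes are among its known targets. In endocrine cells such as these, the enzymes supply a secretory pathway that makes a large amount of 1 peptide hormone.

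The libraries held 59557697 to 68603842 counts, and 14156 genes passed the filter on low counts. In edgeR's quasi-likelihood test over all of these, Benjamini-Hochberg adjusted and called at 0.05, 19.0% of genes were higher and 18.8% lower with enzalutamide, and the median log2 fold change was 0.0067. Of the genes that passed, 50.3% were higher, and 60.7% with total-count scaling. The alpha cell markers Gcg, Ttr, Slc38a5 and Pcsk2 were all read in both groups, while Gc was at 0. The 8 alpha cell markers used here summed to 12780.3 to 14246 CPM (counts scaled to a common library size) with enzalutamide and 20609 to 21793 CPM with DMSO, and of the 7 tested 3 were lower and 1 higher. Ins1, Pdx1, Sst, Ppy, Prss2, Ptf1a, Krt19, Cftr, Cdh5 and Ptprc, defining markers of other pancreatic, vessel and blood cells, were at 0. Other members of those lists were read at low levels: the acinar list summed to 4.72 to 7.35 CPM with enzalutamide and 5.52 to 8.09 CPM with DMSO, nearly all of it Cela1, and the beta cell list to 1.01 to 2.19 CPM with enzalutamide and 1.11 to 2.84 CPM with DMSO, mostly Mafa and Ins2. The delta and PP, ductal, endothelial and macrophage and leukocyte lists summed to at most 0.984 CPM with enzalutamide and 1.52 CPM with DMSO, and none of the genes tested in these 6 lists passed. The 4 fibroblast markers summed to 7.23 to 9.19 CPM with enzalutamide and 5.62 to 6.62 CPM with DMSO, nearly all of it Pdgfra. Pdgfra was the 1 fibroblast marker tested, and it was higher with enzalutamide (0.37 on the log2 scale, adjusted p = 0.0021). The part of any of these lists in the synthetase values was not tested. In bulk RNA, fewer cells of a type and less RNA per cell cannot be told apart.

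Most cytosolic synthetase genes were higher with enzalutamide, and most mitochondrial ones did not pass the test. Of the 20 cytosolic genes 13 were higher with enzalutamide (65.0%, beside 19.0% of all genes tested), 3 were lower (15%, beside 18.8%) and 4 did not pass. Their log2 fold changes, enzalutamide over DMSO and printed from here on with ± their SE, had a median of 0.23 and ran between -0.22 for Hars and 0.58 for Cars. Of the 16 mitochondrial genes 1 was higher (6.25%), 3 were lower (18.8%) and 12 did not pass, with a median of 0.010 and a range of -0.24 for Ears2 to 0.15 for Vars2. All 36 genes passed the filter on low counts, each with at least 570 counts in every library. In 13 cytosolic genes the 5 enzalutamide values were entirely above the 5 DMSO values, against 13.1% of all genes, and in 2 they all lay below, against 13.7%. In the mitochondrial set no gene had its enzalutamide values entirely above DMSO, and Ears2 was the 1 gene with all of them below.

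**Figure D1:**
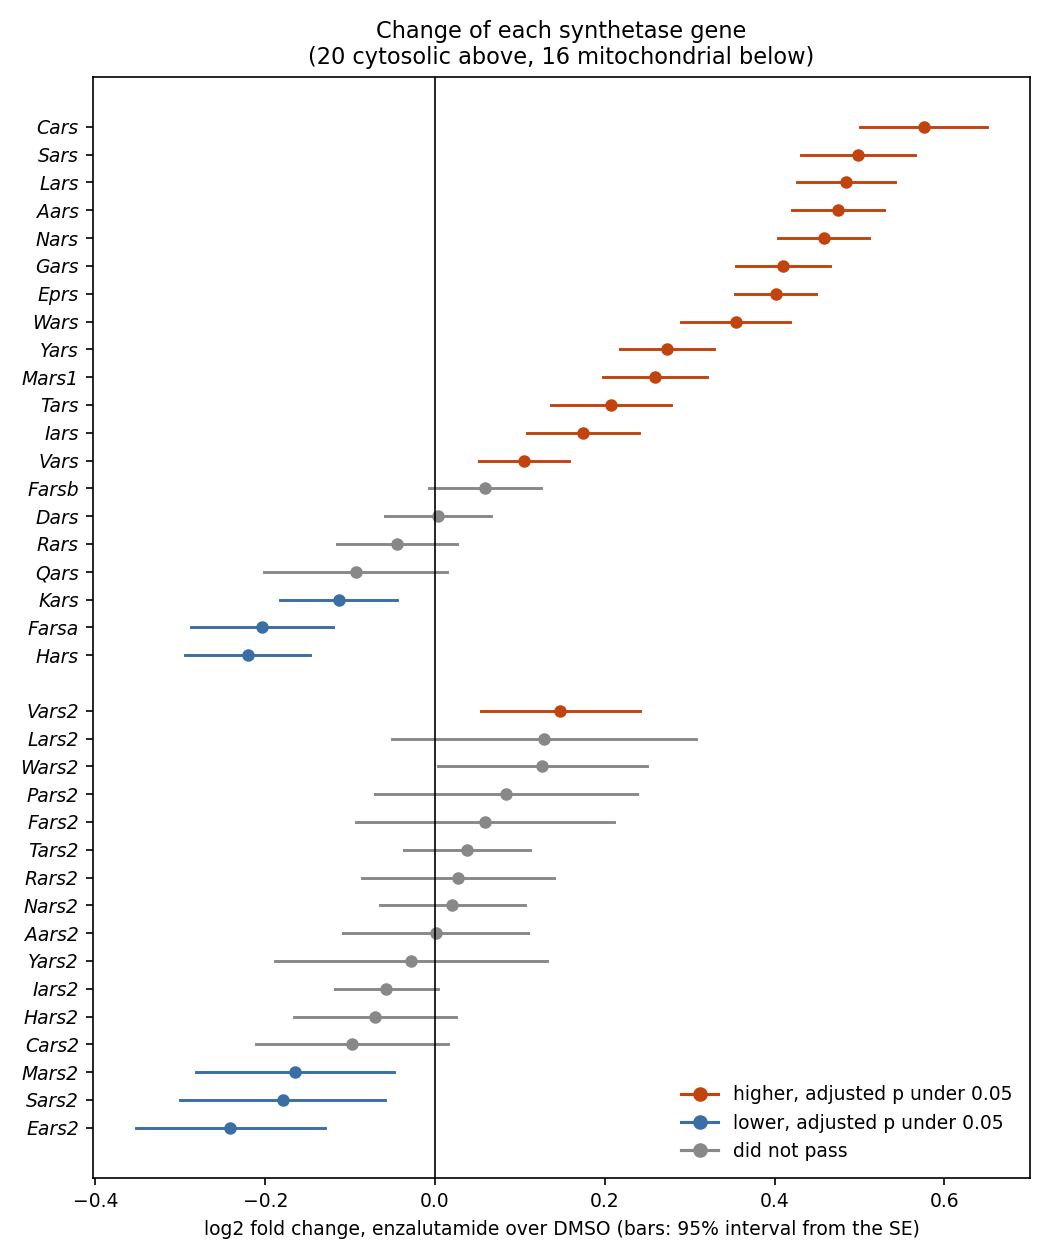
The log2 fold change of each of the 36 synthetase genes, enzalutamide over DMSO (n = 5 each), on the horizontal axis, with cytosolic genes above and mitochondrial genes below and bars for the 95% interval from the SE. 13 of 20 cytosolic points are coloured as higher, up to 0.58 for Cars, while the mitochondrial points lie between -0.24 and 0.15.

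Summed over the set, cytosolic synthetase transcripts came to 5128 ± 90.7 CPM with enzalutamide and 4195 ± 42.1 CPM with DMSO (SD, n = 5 each). The enzalutamide sums ran between 5028 and 5261 CPM and the DMSO sums between 4147 and 4261 CPM, so the groups did not overlap. As a share of all counts this was 0.519% with enzalutamide and 0.414% with DMSO. The mitochondrial set came to 760 ± 23.6 CPM with enzalutamide and 757 ± 15.99 CPM with DMSO. Its range of 732 to 784 CPM with enzalutamide overlapped that of 736 to 778 CPM with DMSO. The cytosolic sums include Gars and Kars, which each encode both forms, so the 2 sums do not fully separate the compartments. Mean levels were 628 CPM with enzalutamide and 473 CPM with DMSO for Gars, and 164 and 178 CPM for Kars. All these sums are a description and were not tested.

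Promoter sequences are shown for the 5 cytosolic genes that were higher and hold the C/EBP-ATF element, the letters that ATF4 with a C/EBP partner is known to bind in amino acid response genes. RefSeq windows (GRCm38.p6) of 250 bases before to 50 bases after a gene's start were searched on both strands for TGATGNAA, which reads TTNCATCA on the other strand. Capitals mark the element, and each window runs 5′ to 3′ along the gene's own strand. Aars is at chr8:111033592-111033891 on the plus strand, Gars at chr6:55037751-55038050 plus, Iars at chr13:49681880-49682179 plus, Tars at chr15:11399609-11399908 minus and Yars at chr4:129189653-129189952 plus.
Aars: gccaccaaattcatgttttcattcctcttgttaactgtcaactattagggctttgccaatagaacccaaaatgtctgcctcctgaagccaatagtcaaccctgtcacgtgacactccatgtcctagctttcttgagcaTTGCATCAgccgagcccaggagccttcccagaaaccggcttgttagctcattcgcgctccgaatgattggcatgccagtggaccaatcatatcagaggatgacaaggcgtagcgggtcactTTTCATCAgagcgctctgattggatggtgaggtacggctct
Gars: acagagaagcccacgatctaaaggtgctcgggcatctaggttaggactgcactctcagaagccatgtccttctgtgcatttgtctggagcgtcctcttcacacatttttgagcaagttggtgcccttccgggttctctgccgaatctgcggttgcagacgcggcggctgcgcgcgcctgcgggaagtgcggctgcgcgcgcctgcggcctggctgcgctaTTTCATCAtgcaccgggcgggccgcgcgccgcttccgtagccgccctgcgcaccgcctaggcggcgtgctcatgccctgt
Iars: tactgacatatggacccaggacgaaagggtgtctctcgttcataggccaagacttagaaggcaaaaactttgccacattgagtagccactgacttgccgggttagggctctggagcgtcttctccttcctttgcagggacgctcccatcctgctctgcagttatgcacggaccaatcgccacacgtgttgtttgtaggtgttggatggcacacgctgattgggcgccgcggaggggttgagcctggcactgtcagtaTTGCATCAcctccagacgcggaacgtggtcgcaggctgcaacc
Tars: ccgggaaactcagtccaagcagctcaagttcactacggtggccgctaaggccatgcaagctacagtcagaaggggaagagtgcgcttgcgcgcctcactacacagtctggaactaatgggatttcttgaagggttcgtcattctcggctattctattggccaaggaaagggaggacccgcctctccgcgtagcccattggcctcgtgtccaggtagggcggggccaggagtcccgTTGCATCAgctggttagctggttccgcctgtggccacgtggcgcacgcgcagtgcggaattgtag
Yars: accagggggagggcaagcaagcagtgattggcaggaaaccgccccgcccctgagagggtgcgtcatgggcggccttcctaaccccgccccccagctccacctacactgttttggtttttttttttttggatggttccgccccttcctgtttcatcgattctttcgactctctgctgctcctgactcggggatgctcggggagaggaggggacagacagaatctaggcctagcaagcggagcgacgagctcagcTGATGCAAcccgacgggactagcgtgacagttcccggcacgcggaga

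The start here is that of RefSeq, and the gene positions given further on are from the GENCODE annotation, whose starts can differ. For Aars the whole window lies inside the gene as GENCODE places it (chr8:111033144-111057664). The Aars window holds 2 elements, whose first bases lie 112 bases before and 9 bases after the RefSeq start. In Gars the element begins 30 bases before the start and in Tars 15 bases before it. In Iars it begins 7 bases after the start, and in Yars 3 bases after it. Asns, the asparagine synthetase gene whose amino acid response element is a textbook ATF4 site, has the element 23 bases before its start, in the 60 bases shown here from its window at chr6:7693160-7693459 on the minus strand.
Asns: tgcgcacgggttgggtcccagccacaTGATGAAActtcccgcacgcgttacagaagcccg

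Of the 13 cytosolic genes that were higher, 8 had a window in the table and 5 of these held the element. Of the other 7 cytosolic genes 5 had a window and 0 held it, and of the 16 mitochondrial genes 14 had a window and 0 held it. Across all 32851 windows the share was 3.97%, counted by window and not limited to the genes tested here. Cars, Lars, Nars, Vars and Wars among the genes that were higher had no entry, and neither did Hars, Rars, Hars2 or Pars2. Sars, Eprs and Mars1 rose and have a window without these letters, as do Xpot, Atf4 and Ddit3 among the genes described further on, whereas the windows of Trib3 and Chac1 hold 1 element each. When the search was held to the 100 bases before the start, the element was in 2 of the 8 windows, Gars and Tars, against 1.54% of all windows. A match is a description of letters and does not show binding, and a window without a match says only that these letters are not in it.

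The other 3 motifs were counted as genes with a match, over the 13 cytosolic and 14 mitochondrial genes with a window, of which Aars2 had 2 overlapping windows. The CRE core TGACG was found for 5 of 13 cytosolic and 5 of 14 mitochondrial genes, and in 20.8% of all windows. The NRF1 core CGCANGCG, known from many nuclear genes of mitochondrial proteins, was found for 6 of 13 cytosolic and 4 of 14 mitochondrial genes, and in 8.21% of all windows. The E-box CACGTG was found for 4 of 13 cytosolic genes and 1 of 14 mitochondrial ones, and in 7.15% of all windows. In none of the members' windows did matches of different motifs share bases. The shares of all windows are counted by window and not limited to the genes tested here, so they are not a like background. Whether the members differ from other genes in these motifs was not tested.

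**Figure D2:**
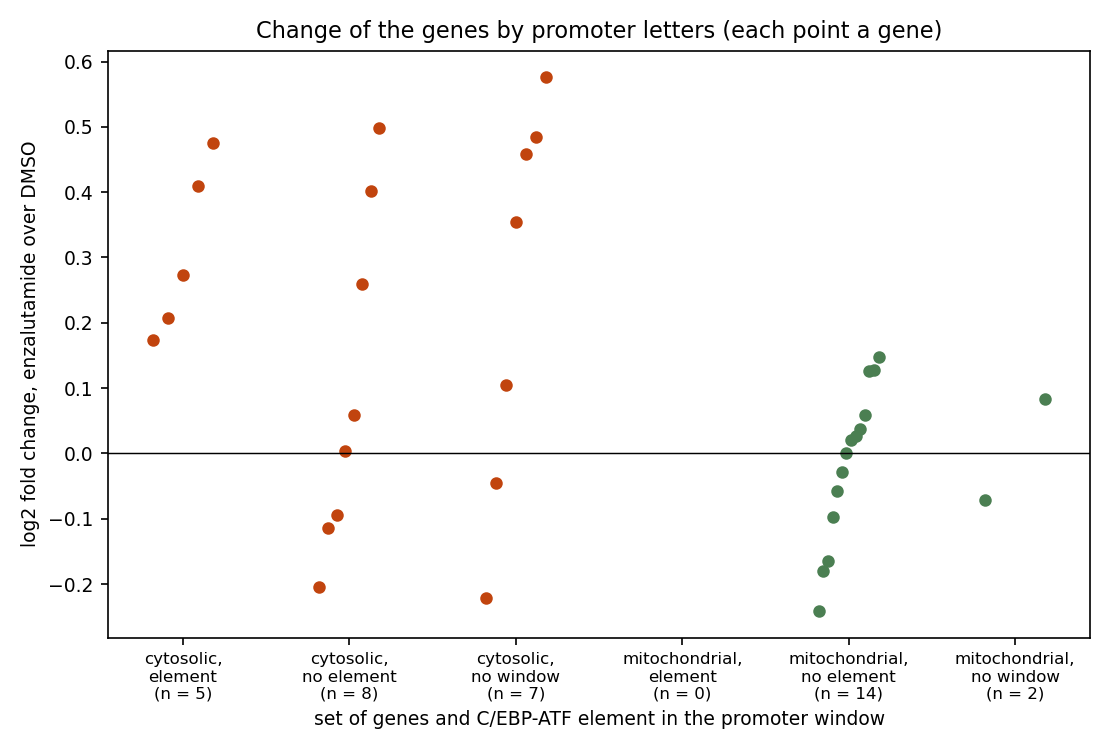
Log2 fold change (enzalutamide over DMSO) of each synthetase gene on the vertical axis, by set and by whether its promoter window holds the C/EBP-ATF element, with genes that have no window in the table in columns of their own. The 5 cytosolic genes with the element lie between 0.17 (Iars) and 0.47 (Aars), and none of the 14 mitochondrial genes with a window has it. Cytosolic genes with a window but no element lie between -0.20 (Farsa) and 0.50 (Sars). Those without a window lie between -0.22 (Hars) and 0.58 (Cars), so the columns overlap.

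Of the 8 cytosolic enzymes that belong to the multi-synthetase complex, 4 were higher with enzalutamide (50%, beside 19.0% of all genes tested). Of the rest 1 was lower (12.5%, beside 18.8%) and 3 did not pass. Eprs (chr1:185363044-185428360 in the GENCODE annotation of GRCm38, from which gene positions are given throughout) joins glutamyl- and prolyl-tRNA synthetase in 1 chain, and so serves 2 amino acids. Its values were 721, 729, 756, 752 and 741 CPM in enzalutamide libraries 1 to 5, against 561, 561, 558, 556 and 564 CPM in DMSO libraries 1 to 5. The lowest enzalutamide library was well above the highest DMSO library (0.40 ± 0.024 on the log2 scale, adjusted p = 1.15e-09). Lars charges leucine tRNAs and is also known as a leucine sensor for mTORC1. It was read at 234, 246, 239, 246 and 234 CPM in enzalutamide libraries 1 to 5, against 165, 172, 174, 175 and 171 CPM in DMSO libraries 1 to 5. The groups again did not overlap (0.48 ± 0.03 on the log2 scale, adjusted p = 1.31e-09).

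Mars1, the methionyl enzyme needed for the initiator tRNA as well as for elongation, lay at 169 to 181 CPM with enzalutamide and 140.0 to 148 CPM with DMSO (0.26 ± 0.031 on the log2 scale, adjusted p = 4.49e-06). Iars, the isoleucyl enzyme, lay at 279 to 299.6 CPM with enzalutamide and 239 to 266 CPM with DMSO (0.17 ± 0.034 on the log2 scale, adjusted p = 0.000514). Both rose without overlap between the groups. The Mars1 gene (Mars) and Ddit3 end tail to tail and share 68 exon bases on opposite strands, 1.99% of the Mars1 exon bases, and the strand setting of the counts is not stated. Ddit3 itself was higher, as given further on, and its part in the Mars1 value was not tested.

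Kars (chr8:111993443-112011323), the lysyl enzyme of both compartments, was lower: 163, 175, 160.5, 169.6 and 154 CPM in enzalutamide libraries 1 to 5, against 179.7, 175, 182, 179 and 173 CPM in DMSO libraries 1 to 5. Enzalutamide library 2, the highest of its group, lay within the DMSO range (-0.11 ± 0.035 on the log2 scale, adjusted p = 0.0164). Under total-count scaling the adjusted p of Kars was 0.0797. Dars (aspartyl), Qars (glutaminyl) and Rars (arginyl) did not pass. Dars lay at 164 to 174 CPM with enzalutamide and 162 to 175 CPM with DMSO (0.0037 ± 0.032 on the log2 scale, adjusted p = 0.946). Rars lay at 109 to 121 CPM with enzalutamide and 115 to 125 CPM with DMSO (-0.045 ± 0.036 on the log2 scale, adjusted p = 0.361). Qars lay at 36.9 to 46.6 CPM with enzalutamide and 43.9 to 47.8 CPM with DMSO (-0.093 ± 0.055 on the log2 scale, adjusted p = 0.203), and its CV of 8.58% with enzalutamide was the widest of the cytosolic set.

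The complex is held together by Aimp1, Aimp2 and Eef1e1. Of these 3 scaffold genes 0 were higher (beside 19.0% of all genes tested) and 1 was lower (33.3%, beside 18.8%). Aimp2, which anchors the lysyl enzyme and is required for assembly, was read at 24.1, 32.9, 29.8, 29.4 and 27.6 CPM in enzalutamide libraries 1 to 5, against 36.8, 35.2, 37.8, 35.6 and 34.3 CPM in DMSO libraries 1 to 5. Every enzalutamide value was below every DMSO value (-0.32 ± 0.066 on the log2 scale, adjusted p = 0.000864). Neither Aimp1 (-0.025 ± 0.042 on the log2 scale, adjusted p = 0.686) nor Eef1e1 (-0.11 ± 0.052 on the log2 scale, adjusted p = 0.107) passed.

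Among the 12 cytosolic enzymes outside the complex 9 were higher (75%, beside 19.0% of all genes tested). Of the rest 2 were lower (16.7%, beside 18.8%) and 1 did not pass. Aars (chr8:111033144-111057664), the alanyl enzyme, was read at 582, 627, 590.1, 587 and 584 CPM in enzalutamide libraries 1 to 5, against 428, 419.8, 432, 434 and 424 CPM in DMSO libraries 1 to 5. All 5 enzalutamide libraries were higher, with library 2 standing above the other 4 (0.47 ± 0.028 on the log2 scale, adjusted p = 6.55e-10). Of its annotated exon bases 1326, or 14.3%, are shared with Exosc6 on the same strand, so reads there cannot be told apart. Nars, the asparaginyl enzyme, was read at 357, 361, 357, 359 and 356 CPM in enzalutamide libraries 1 to 5, against 272, 261, 260.2, 252 and 258 CPM in DMSO libraries 1 to 5. Its enzalutamide values were the tightest of the cytosolic set in that group, with a CV of 0.583% (0.46 ± 0.027 on the log2 scale, adjusted p = 8.48e-10).

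The largest fold changes of the 36 genes were those of Cars and Sars. Cars (chr7:143557230-143600090), which loads cysteine, was read at 90.3, 96.5, 91.3, 97.2 and 95.1 CPM in enzalutamide libraries 1 to 5, against 63.8, 64.95, 64.8, 63.2 and 58.8 CPM in DMSO libraries 1 to 5. That is a level 49% higher with enzalutamide (0.58 ± 0.038 on the log2 scale, adjusted p = 3.42e-09). Sars (chr3:108424865-108445209), which loads serine and also the tRNA for selenocysteine, was read at 349, 372, 339.7, 357 and 329.7 CPM in enzalutamide libraries 1 to 5, against 249, 242, 258, 247 and 240.3 CPM in DMSO libraries 1 to 5. It was 41.2% higher (0.50 ± 0.034 on the log2 scale, adjusted p = 5.89e-09). Gars, the glycyl enzyme of cytosol and mitochondria, lay at 608 to 664 CPM with enzalutamide and 462 to 484 CPM with DMSO (0.41 ± 0.028 on the log2 scale, adjusted p = 6.2e-09).

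Smaller rises were measured for 4 more. Wars, the tryptophanyl enzyme, lay at 163 to 175 CPM with enzalutamide and 127 to 136 CPM with DMSO (0.35 ± 0.033 on the log2 scale, adjusted p = 2.09e-07). Yars, the tyrosyl enzyme, lay at 179 to 188 CPM with enzalutamide and 147 to 152 CPM with DMSO (0.27 ± 0.028 on the log2 scale, adjusted p = 7.8e-07). Tars, the threonyl enzyme, lay at 127 to 133 CPM with enzalutamide and 109 to 122 CPM with DMSO (0.21 ± 0.036 on the log2 scale, adjusted p = 0.000193). Vars, the valyl enzyme, was the smallest of the 13, at 356 to 382 CPM with enzalutamide and 339 to 349 CPM with DMSO (0.10 ± 0.027 on the log2 scale, adjusted p = 0.00482). Vars did not pass once GC and length trends were removed (0.023 on the log2 scale, adjusted p = 0.449).

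Hars and Farsa were lower. Hars, the histidyl enzyme, was read at 96.4, 98.7, 87.8, 94.4 and 93.5 CPM in enzalutamide libraries 1 to 5, against 107, 105, 112, 114 and 110.3 CPM in DMSO libraries 1 to 5. The groups did not overlap, and the level fell by 14.2% (-0.22 ± 0.038 on the log2 scale, adjusted p = 0.00016). Of the Hars exon bases 195, or 7.97%, are shared with Hars2 on the opposite strand. Farsa (chr8:84856989-84869257), the catalytic subunit of the phenylalanyl enzyme, was read at 74.5, 71.8, 71.6, 80.2 and 71.3 CPM in enzalutamide libraries 1 to 5, against 81.4, 91.7, 82.6, 84.2 and 85.6 CPM in DMSO libraries 1 to 5. Here too the highest enzalutamide value, in library 4, was below the lowest DMSO value (-0.20 ± 0.043 on the log2 scale, adjusted p = 0.00105). Farsb, the other subunit of that enzyme, did not pass, at 148 to 159 CPM with enzalutamide and 139 to 151 CPM with DMSO (0.059 ± 0.034 on the log2 scale, adjusted p = 0.192). It passed as higher with total-count scaling (adjusted p = 0.0386) and with GC and length trends removed (adjusted p = 0.0228).

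By structural class, 7 of 9 class I cytosolic genes were higher (77.8%) and 0 lower, the other 2 being Qars and Rars. Of 10 class II genes 5 were higher (50%) and all 3 that were lower (Hars, Farsa, Kars) belong here (30%). Over all genes tested 19.0% were higher and 18.8% lower. Eprs has a catalytic domain of each class and is counted in neither. The medians were 0.26 for class I and 0.13 for class II on the log2 scale, and the difference between classes was not tested.

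**Figure D3:**
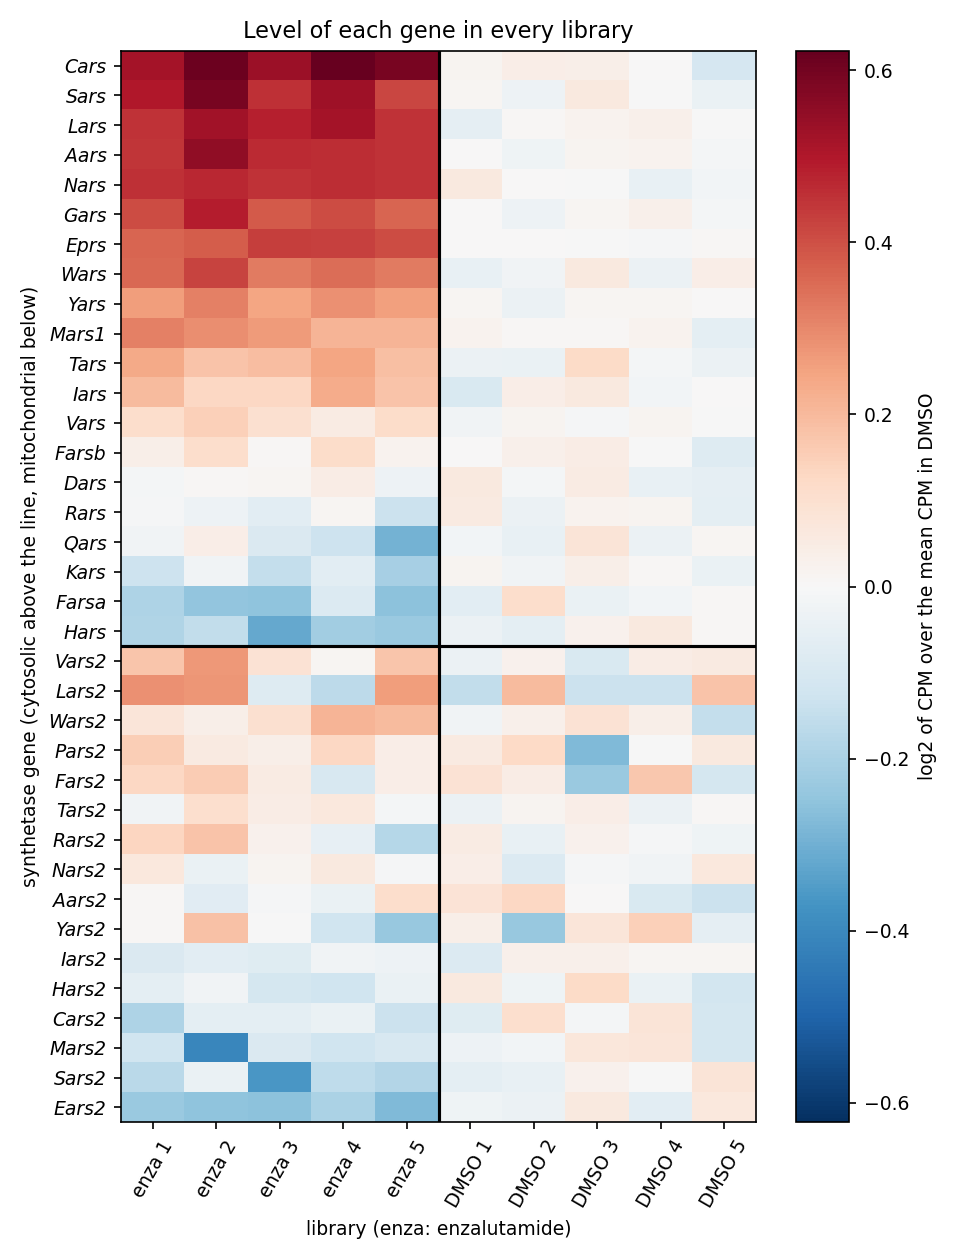
Level of each synthetase gene (rows, cytosolic above the line) in each of the 10 libraries (columns), as log2 of its CPM over the mean CPM in DMSO. The upper 13 cytosolic rows are above the DMSO mean in all 5 enzalutamide libraries, as are Farsb and, among the mitochondrial rows, Vars2, Wars2 and Pars2. The other mitochondrial rows are not above it in all 5.

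In the mitochondrial set 4 genes passed. Vars2 (chr17:35655634-35667592), the valyl enzyme, was read at 73.1, 78.3, 69.1, 65.4 and 73.1 CPM in enzalutamide libraries 1 to 5, against 63.1, 66.1, 60.6, 66.9 and 67.4 CPM in DMSO libraries 1 to 5. It was higher (0.15 ± 0.048 on the log2 scale, adjusted p = 0.0208), with enzalutamide library 4 inside the DMSO range. Removing GC and length trends raised the adjusted p of Vars2 to 0.208, and the call was also lost without DMSO library 1 or 3 or enzalutamide library 2. An annotated antisense transcript covers 8.52% of its exon bases.

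Ears2 (chr7:122037213-122067263) loads glutamate, and its product on the glutamine tRNA is converted to glutaminyl-tRNA by an amidotransferase, since no separate mitochondrial glutaminyl enzyme exists in mammals. It was read at 13.3, 13.1, 13.04, 13.5 and 12.9 CPM in enzalutamide libraries 1 to 5, against 15.2, 15.2, 16.2, 14.9 and 16.3 CPM in DMSO libraries 1 to 5. No enzalutamide value reached the DMSO range (-0.24 ± 0.057 on the log2 scale, adjusted p = 0.00271), and its call held under each of the 21 alternatives. Sars2 (chr7:28741992-28753871), the seryl enzyme, was read at 17.7, 19.3, 15.5, 17.8 and 17.5 CPM in enzalutamide libraries 1 to 5, against 19.1, 19.3, 20.3, 19.9 and 21.04 CPM in DMSO libraries 1 to 5. Enzalutamide library 2 lay inside the DMSO range and library 3 was the lowest of the 10 (-0.18 ± 0.062 on the log2 scale, adjusted p = 0.0291). The call was lost with total-count scaling (adjusted p = 0.069) and without DMSO library 3 or 5 or enzalutamide library 3.

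Mars2 (chr1:55237177-55248470), the methionyl enzyme, was read at 40.6, 33.3, 41.5, 40.5 and 41.2 CPM in enzalutamide libraries 1 to 5, against 43.2, 43.7, 46.5, 46.6 and 40.9 CPM in DMSO libraries 1 to 5. Enzalutamide library 2 was far below its group and 1 DMSO library, library 5, lay within the range of the other group (-0.17 ± 0.06 on the log2 scale, adjusted p = 0.0367). The Mars2 call was lost under 7 of 21 alternatives, with adjusted p up to 0.106, among them leaving out DMSO library 1, 2, 3 or 4 or enzalutamide library 2.

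The other 12 mitochondrial genes did not pass. Lars2, the leucyl enzyme, was the most variable of all, with a CV of 14.7% with enzalutamide and 12.7% with DMSO. It was read at 144, 143, 111, 105 and 141 CPM in enzalutamide libraries 1 to 5, against 106, 135, 108, 108 and 133 CPM in DMSO libraries 1 to 5. Enzalutamide libraries 3 and 4 and DMSO libraries 1, 3 and 4 were low and the other 5 high, so the groups overlapped widely (0.13 ± 0.091 on the log2 scale, adjusted p = 0.301). Wars2 had the next largest log2 fold change (0.13 ± 0.063 on the log2 scale, adjusted p = 0.129), followed by Pars2 (0.084 ± 0.079 on the log2 scale, adjusted p = 0.444) and Fars2 (0.059 ± 0.077 on the log2 scale, adjusted p = 0.601). Tars2, Rars2, Nars2 and Aars2 had log2 fold changes between 0.00055 and 0.037, and Yars2, Iars2, Hars2 and Cars2 between -0.10 and -0.029. The signs of Aars2, Rars2 and Yars2 turned under some scalings or without single libraries. For Iars2, 2034 exon bases or 22.9% are shared with Rab3gap2 on the opposite strand.

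Iars2, the isoleucyl enzyme, lay at 179.7 to 188 CPM with enzalutamide and 180.3 to 196 CPM with DMSO, with a 95% interval of -0.12 to 0.0032 for its log2 fold change. Its adjusted p was 0.163, and 0.0435 without DMSO library 1. Hars2, the histidyl enzyme, shares 195 exon bases at its 5′ end with Hars on the opposite strand. It lay at 37.03 to 39.9 CPM with enzalutamide and 37.3 to 43.8 CPM with DMSO (-0.071 ± 0.049 on the log2 scale, adjusted p = 0.282).

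Setting each cytosolic gene against its mitochondrial counterpart within every library tests directly whether the 2 changed by different amounts. Eprs was paired with both Ears2 and Pars2 and Fars2 with both Farsa and Farsb, which gave 17 pairs, and Dars, Gars, Kars and Qars had no counterpart among the 16. The log2 ratio of the CPM values was compared by an exact two-sided permutation test, whose smallest p with 5 against 5 libraries is 0.00794, with Benjamini-Hochberg adjustment over the 17 pairs. The ratio was higher with enzalutamide in 12 pairs and lower in 1, and 4 did not pass. In 7 of the 12 the enzalutamide and DMSO ratios did not overlap. The median difference over the 17 pairs was 0.30. No share over other pairs of genes was computed to set beside these counts. Pairs that have Eprs or Fars2 in common are not independent of each other.

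The ratio moved most for the serine pair: Sars over Sars2 had a log2 ratio of 4.23 to 4.46 with enzalutamide and 3.51 to 3.71 with DMSO (difference 0.68, SE 0.051, adjusted p = 0.0193). Cars over Cars2 followed, with 2.18 to 2.32 with enzalutamide and 1.51 to 1.68 with DMSO (difference 0.67, SE 0.04, adjusted p = 0.0193). For Eprs over Ears2 the log2 ratio was 5.77 to 5.86 with enzalutamide and 5.11 to 5.23 with DMSO (difference 0.64, SE 0.031, adjusted p = 0.0193). These 3 pairs combine a cytosolic gene that rose with a mitochondrial one that was lower or below its DMSO mean, and Cars2 did not pass on its own (-0.10 ± 0.058 on the log2 scale, adjusted p = 0.203).

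Aars over Aars2 (difference 0.47, SE 0.071, adjusted p = 0.0193), Nars over Nars2 (difference 0.44, SE 0.035, adjusted p = 0.0193), Mars1 over Mars2 (difference 0.43, SE 0.075, adjusted p = 0.0193) and Iars over Iars2 (difference 0.23, SE 0.021, adjusted p = 0.0193) also did not overlap between groups. The differences for Eprs over Pars2, Lars over Lars2, Yars over Yars2, Wars over Wars2 and Tars over Tars2 were between 0.17 and 0.36 with overlapping groups. For Lars over Lars2 (difference 0.36, SE 0.13, adjusted p = 0.0225) the pair was lost without DMSO library 1, 2, 3 or 5 or enzalutamide library 3 (adjusted p of 0.0519 to 0.0623). Wars over Wars2 was lost without DMSO library 1, 2 or 3 (adjusted p of 0.0519 to 0.0562).

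Hars over Hars2 was the pair with a lower ratio, at 1.23 to 1.35 with enzalutamide and 1.34 to 1.56 with DMSO (difference -0.15, SE 0.052, adjusted p = 0.0225). It was lost without enzalutamide library 1, 2, 3 or 5, with adjusted p of 0.0519 to 0.0623. Hars and Hars2 share 195 exon bases on opposite strands, and the strand setting of the counts is not stated. The part of the shared bases in this ratio was not tested. Farsa over Fars2 had a difference of similar direction that did not pass (difference -0.27, SE 0.1, adjusted p = 0.0578), and it passed without DMSO library 4 (adjusted p = 0.0337) or enzalutamide library 4 (adjusted p = 0.0311). Farsb over Fars2 (difference -0.0043, SE 0.092, adjusted p = 0.944), Rars over Rars2 (difference -0.067, SE 0.054, adjusted p = 0.27) and Vars over Vars2 (difference -0.042, SE 0.038, adjusted p = 0.329) did not pass. Vars and Vars2 are the pair in which both genes were called higher.

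**Figure D4:**
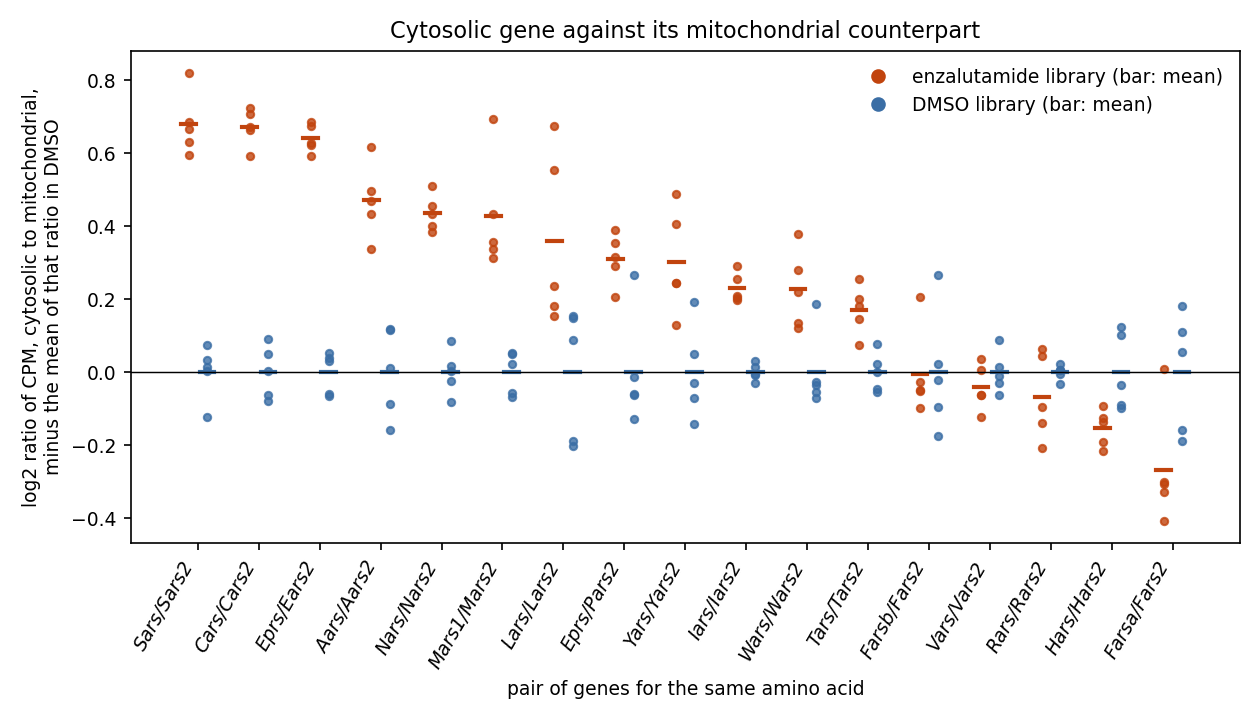
For each of the 17 pairs, the log2 ratio of CPM of the cytosolic to the mitochondrial gene in each library, minus the mean of that ratio in DMSO; enzalutamide points stand left of DMSO points and bars are means. The differences run between 0.68 for Sars over Sars2 and -0.27 for Farsa over Fars2, and 7 pairs show no overlap of the points.

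Per kilobase of annotated exon, the cytosolic genes were the more abundant set. Their median level was 42.8 CPM per kilobase with enzalutamide and 39.2 with DMSO, and for the mitochondrial genes it was 5.75 with enzalutamide and 5.98 with DMSO. Gars had the highest level, 201 ± 6.81 with enzalutamide and 152 ± 2.60 with DMSO CPM per kilobase. The level of Nars was 82.2 ± 0.479 with enzalutamide and 59.8 ± 1.61 with DMSO CPM per kilobase. Qars was the lowest cytosolic gene (6.46 ± 0.554 with enzalutamide and 6.89 ± 0.240 with DMSO CPM per kilobase) and Cars was among the low ones (14.3 ± 0.472 with enzalutamide and 9.59 ± 0.385 with DMSO CPM per kilobase). The highest mitochondrial gene was Iars2 (20.7 ± 0.420 with enzalutamide and 21.6 ± 0.717 with DMSO CPM per kilobase). Exon length counts every annotated exon of a gene, used or not, so these levels are approximate.

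**Figure D5:**
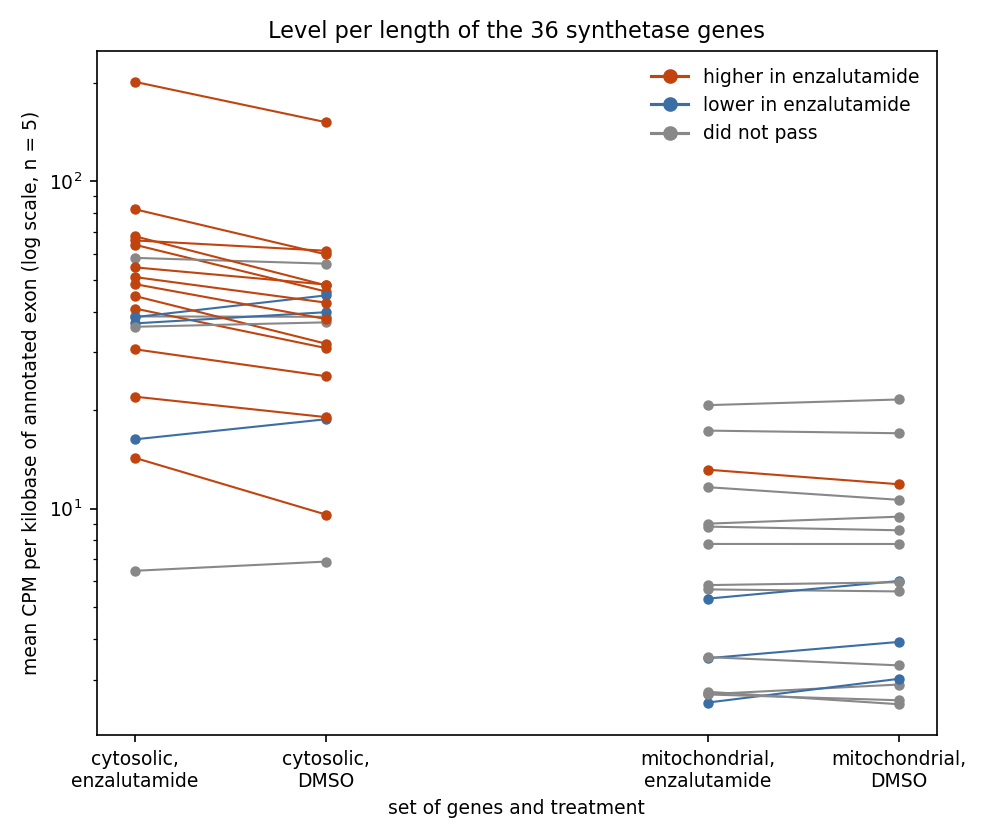
Mean CPM per kilobase of annotated exon (log scale, n = 5 libraries) of the 36 synthetase genes, each joined by a line between enzalutamide on the left and DMSO on the right, with cytosolic genes to the left of the mitochondrial ones. The cytosolic medians are 42.8 with enzalutamide and 39.2 with DMSO, and the mitochondrial medians 5.75 with enzalutamide and 5.98 with DMSO.

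Within a group the cytosolic genes were measured tightly, with a median CV of 3.10% with enzalutamide and 3.03% with DMSO. The mitochondrial genes, read from fewer counts, had a median CV of 5.06% with enzalutamide and 5.79% with DMSO. Libraries differed slightly as a whole: enzalutamide library 2 was the highest of its group for 18 of the 36 genes, and library 5 the lowest for 13. Among DMSO libraries, library 3 was the highest for 10 genes and library 5 the lowest for 12. With any 1 library left out, the cytosolic counts were 13 higher and 3 lower.

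Genes related to tRNA charging were read from lists of 50, which include sensors of uncharged tRNA and genes of the ATF4 response. Of these 49 were tested and 10 were higher and 15 lower (20.4% and 30.6%, beside 19.0% and 18.8% of all genes). The list of uncharged tRNA sensing and ATF4 held 7 of the 10 that were higher and 0 of the 15 that were lower. Trib3 at the top and Pop1 at the bottom span log2 fold changes of 3.07 to -0.60, and the median was -0.028. Neither the 6 genes of editing and tRNA release nor the 3 tested genes of the mitochondrial amidotransferase and formylation had a member that passed. Tarsl2, a second threonyl enzyme, did not pass (0.054 ± 0.062 on the log2 scale, adjusted p = 0.543). Of 5 selenocysteine genes 1 was lower (20%, beside 18.8% of all genes), the selenophosphate synthetase-like gene Sephs1 (-0.15 ± 0.038 on the log2 scale, adjusted p = 0.00442).

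Xpot, the exportin that carries tRNAs out of the nucleus, had a log2 fold change above that of any of the 36 synthetase genes, a difference that was not tested. It was read at 313, 299, 305, 319 and 326 CPM in enzalutamide libraries 1 to 5, against 189.5, 201, 193, 201 and 197 CPM in DMSO libraries 1 to 5. The level was 59.1% higher with enzalutamide (0.67 ± 0.031 on the log2 scale, adjusted p = 3.62e-11). Tsen54, a subunit of the endonuclease that splices tRNAs, also rose, with 39.2, 41.8, 37.1, 38.6 and 36.7 CPM in enzalutamide libraries 1 to 5, against 33.8, 35.8, 34.8, 34.4 and 33.5 CPM in DMSO libraries 1 to 5 (0.17 ± 0.046 on the log2 scale, adjusted p = 0.00779). The other 11 genes of tRNA maturation and export included 6 that were lower. Of the 13 in the list 15.4% were higher and 46.2% lower, beside 19.0% and 18.8% of all genes tested. Pop1, a subunit of RNase P, was read at 16.8, 20.2, 16.7, 16.5 and 19.9 CPM in enzalutamide libraries 1 to 5, against 29.3, 26.9, 25.95, 26.9 and 27.2 CPM in DMSO libraries 1 to 5 (-0.60 ± 0.066 on the log2 scale, adjusted p = 1.76e-06). Rpp30, another RNase P subunit, was lower by less (-0.38 ± 0.057 on the log2 scale, adjusted p = 4.85e-05).

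Elac2, which trims the 3' end of precursor tRNAs, was lower at 34.2, 36.1, 31.9, 32.7 and 34.4 CPM in enzalutamide libraries 1 to 5, against 42.4, 44.3, 42.2, 46.8 and 48.7 CPM in DMSO libraries 1 to 5 (-0.41 ± 0.051 on the log2 scale, adjusted p = 7.91e-06). So was Nsun2, a tRNA cytosine methyltransferase (237 ± 8.57 CPM with enzalutamide and 274 ± 1.28 CPM with DMSO; -0.21 ± 0.03 on the log2 scale, adjusted p = 2.38e-05). Ssb, the La protein that protects newly made tRNA ends, was lower (-0.24 ± 0.037 on the log2 scale, adjusted p = 6.12e-05), as was Rtcb, the tRNA ligase (-0.14 ± 0.034 on the log2 scale, adjusted p = 0.00415).

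The elongation factors deliver charged tRNAs to the ribosome and move it along. Of the 6 cytosolic genes 5 were lower (83.3%, beside 18.8% of all genes tested) and 1 was higher (16.7%, beside 19.0%). Eef1a2 was read at 613, 630.2, 591, 587 and 593 CPM in enzalutamide libraries 1 to 5, against 749, 783, 771, 799.9 and 779.5 CPM in DMSO libraries 1 to 5 (-0.37 ± 0.028 on the log2 scale, adjusted p = 2.41e-08). Its more widely used relative Eef1a1 was lower by less (-0.18 ± 0.032 on the log2 scale, adjusted p = 0.000281), as were the exchange factor subunits Eef1d (-0.24 ± 0.03 on the log2 scale, adjusted p = 8.19e-06) and Eef1g (-0.25 ± 0.039 on the log2 scale, adjusted p = 5.48e-05) and the translocase Eef2 (-0.093 ± 0.022 on the log2 scale, adjusted p = 0.00304). Eef1b2, the third exchange subunit, was higher: 229, 238, 225, 226 and 189.7 CPM in enzalutamide libraries 1 to 5, against 201, 186, 201, 198 and 189 CPM in DMSO libraries 1 to 5. Enzalutamide library 5 lay within the DMSO range (0.18 ± 0.049 on the log2 scale, adjusted p = 0.00642). Of the 4 mitochondrial elongation factors 2 were lower (50%, beside 18.8% of all genes tested). Gfm1, the translocase, was read at 196, 206, 209, 198 and 201 CPM in enzalutamide libraries 1 to 5, against 255, 266, 279.7, 271 and 271 CPM in DMSO libraries 1 to 5 (-0.41 ± 0.032 on the log2 scale, adjusted p = 2.33e-08). Tufm, which delivers the charged tRNA, was lower by less (-0.13 ± 0.038 on the log2 scale, adjusted p = 0.0132) and did not pass with total-count scaling (adjusted p = 0.0628), and Tsfm and Gfm2 did not pass.

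Of 8 genes that sense uncharged tRNA or carry the ATF4 response, 7 were higher (87.5%, beside 19.0% of all genes tested) and 0 lower. The list joins the sensor genes Eif2ak4, Gcn1 and Impact with Atf4 and genes of its response, and it was chosen with earlier results of these data known. Whether GCN2 or ATF4 had a part in the changes of the synthetase genes was not tested. Atf4 was read at 488, 514, 504, 486 and 437 CPM in enzalutamide libraries 1 to 5, against 321, 306, 325, 311 and 295 CPM in DMSO libraries 1 to 5 (0.64 ± 0.04 on the log2 scale, adjusted p = 1.93e-09). Its target Asns was read at 437, 465, 425, 430.0 and 422 CPM in enzalutamide libraries 1 to 5, against 279.8, 286, 292, 281 and 288 CPM in DMSO libraries 1 to 5 (0.61 ± 0.031 on the log2 scale, adjusted p = 1.02e-10). Both log2 fold changes stand beside 0.58 for Cars, the largest of the synthetases. Ddit3, which encodes CHOP, was read at 68.6, 70.3, 60.5, 67.5 and 59.8 CPM in enzalutamide libraries 1 to 5, against 19.5, 18.9, 20.6, 19.6 and 17.8 CPM in DMSO libraries 1 to 5 (1.76 ± 0.057 on the log2 scale, adjusted p = 2.72e-13). Trib3, a pseudokinase that binds ATF4 and CHOP, was read at 71.02, 76.2, 64.5, 64.1 and 64.4 CPM in enzalutamide libraries 1 to 5, against 7.98, 10.9, 8.80, 6.24 and 6.58 CPM in DMSO libraries 1 to 5 (3.07 ± 0.11 on the log2 scale, adjusted p = 1.44e-12). Chac1, which breaks down glutathione, was read at 59.4, 63.4, 58.7, 60.1 and 56.1 CPM in enzalutamide libraries 1 to 5, against 11.9, 12.8, 13.9, 13.5 and 13.2 CPM in DMSO libraries 1 to 5 (2.19 ± 0.052 on the log2 scale, adjusted p = 6.09e-15). In all 5 of these genes the groups did not overlap.

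The sensor genes themselves had smaller log2 fold changes. Eif2ak4, encoding the kinase GCN2 that binds uncharged tRNA, lay at 37.5 to 39.7 CPM with enzalutamide and 34.8 to 37.1 CPM with DMSO (0.12 ± 0.041 on the log2 scale, adjusted p = 0.0318). Its call was lost when enzalutamide library 1, 4 or 5 or DMSO library 1, 2 or 5 was left out (adjusted p of 0.0587 to 0.0704). Gcn1, its activator on the ribosome, did not pass (0.023 ± 0.032 on the log2 scale, adjusted p = 0.621), and its direction turned when GC and length trends were removed (log2 fold change -0.046). Impact, which competes for Gcn1, was higher (0.18 ± 0.03 on the log2 scale, adjusted p = 0.000164).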

How the data were processed

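Polyadenylated RNA of αTC1 cells was sequenced from 10 libraries, 5 with enzalutamide and 5 with DMSO, grouped by their titles and treatment labels. HISAT2, StringTie and DESeq2 and the build mm10 appear in the submitters' processing notes, with no version or role. The authors deposited whole-number counts per gene for 33212 genes. Their derivation from reads, the handling of multi-mapping reads and the strand setting are not stated by any label or header. The authors also deposited a signal scaled by library, used for an alternative. Columns were matched to samples by name, and 0 were left unused.

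The test was edgeR 4.0.16 under R 4.3.3 (filterByExpr, 14156 genes; trimmed mean of M values; quasi-likelihood test without covariates; Benjamini-Hochberg adjustment over all genes tested; threshold 0.05). SE is the absolute log2 fold change over the square root of F, intervals are 95% with a normal quantile, and ± is the SD over 5 libraries for levels and the SE for log2 fold changes. CPM uses the scaled library sizes. The biological coefficient of variation was 8.39%, and a count of 3 is 0.0439 to 0.0497 CPM, which covers counting error only. Chi-square per degree of freedom between libraries of a group was 9.24 to 38.0, so all 10 were kept as separate samples. Separate cultures are not described beyond the label's wording, so p-values speak only for the spread among these libraries. Alternatives used DESeq2 1.42.0, limma 3.58.1, other scalings and filters, GC and length offsets, a replicate block and single libraries left out.

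Gene positions, exon lengths and overlaps came from GENCODE annotation of GRCm38, and promoter windows from RefSeq (GRCm38.p6). The 36 members and the other lists were chosen with earlier results of these data known. Genes given with all 10 values are, in each set and direction, the 4 of lowest adjusted p among those passing (fewer where fewer passed), plus Cars, Sars and Lars2, added after their values were seen, and up to 4 passing members of each other list, with Atf4, Ddit3, Trib3, Asns and Xpot by name. Some marker genes are not reported here. Of the list genes, Gatb was not found under that symbol. A comparison of protein sequences was planned and not run.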

Additional observations from a re-analysis of the deposited data

Results flagged for a closer look

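In groups of 5 libraries, a highest or lowest library was marked where its gap to the next one took more than 0.71 of the group's whole range. Chance marks about 1 in 20 such groups, and 8 of 174 groups were marked here. Among the enzalutamide libraries, library 2 was the highest for Aars, at 627 CPM with the next at 590.1 CPM. Library 2 was also the lowest for Mars2, at 33.3 CPM with the next at 40.5 CPM. Enzalutamide library 5 was the lowest for Eef1b2, at 189.7 CPM with the next at 225 CPM. Among the DMSO libraries, library 5 was the lowest for Cars, at 58.8 CPM with the next at 63.2 CPM. DMSO library 5 was the lowest for Mars1 as well, at 140.0 CPM with the next at 146 CPM. Library 3 was the highest of the DMSO group for Tars, at 122 CPM with the next at 111 CPM. Yars was lowest in DMSO library 2, at 147 CPM with the next at 151 CPM. Iars2 was lowest in DMSO library 1, at 180.3 CPM with the next at 193 CPM. Without the marked library the calls of Aars, Cars, Mars1, Tars and Yars held, Mars2 had an adjusted p of 0.079, Eef1b2 one of 1.85e-05, and Iars2 passed as lower (adjusted p = 0.0435).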

How the results depend on the processing

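In the cytosolic set 14 of the 16 genes that passed kept their direction and passed under all 21 alternatives, Kars and Vars being the exceptions given in the report, and in the mitochondrial set 1 of 4 did, Ears2. With total-count scaling the median log2 fold change was 0.27 for cytosolic and 0.045 for mitochondrial genes, and 1 mitochondrial gene was lower. With GC and length trends removed, 0 mitochondrial genes were higher and their median was -0.00018, and with the replicate block added 0 and -0.00042. With 1 library left out, cytosolic medians were 0.22 to 0.25 and mitochondrial ones -0.0056 to 0.023, with 0 to 1 mitochondrial genes higher and 1 to 3 lower, and 11 to 14 of the 17 pairs passed. Log2 fold changes in those fits ran between -0.0097 and 0.016 for Dars, -0.031 and 0.035 for Aars2, -0.013 and 0.074 for Rars2, and -0.086 and 0.019 for Yars2, and the difference of Farsb over Fars2 between -0.057 and 0.063. Aars2 was also at -0.0024 with relative log expression scaling and with DESeq2, -0.0014 with a mean CPM of at least 1, -0.00018 and -0.00019 with limma-trend at pseudocounts of 1 and 8, and -0.069 and -0.068 with GC and length trends removed without and with the block. Yars2 was at 0.0055 with total-count scaling, and Gcn1 at -0.046 with GC and length trends removed, with or without the block. In the 100 bases before the start, the C/EBP-ATF element was found for 2 cytosolic genes, the CRE core for 2, the E-box for 2 and the NRF1 core for 3, and among mitochondrial genes the E-box for 0 and the NRF1 core for 2. The cause of these shifts was not tested.

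Samples sharing a replicate number did not deviate together: the correlations of their deviations from the group means were -0.0085 to 0.045, and replicates 3 and 5 alone correlated best with their own number. This gave no sign that the numbers pair the libraries, but it cannot show that they do not, and the labels do not say. With the replicate number as a block, 13 cytosolic genes were higher and 3 lower, 1 mitochondrial gene was higher and 3 lower, and 2659 genes in all were higher and 2637 lower. Eif2ak4 had an adjusted p of 0.0588 there, and with GC and length trends also removed Eif2ak4 had one of 0.0651 and Tsen54 one of 0.0542. Under the block 0 pairs passed the sign-flip test, whose smallest p with 5 pairs is 0.0625, so it could not pass. The mitochondrial genes rest on fewer counts and have wider CVs, which limits what could be detected there. No listed gene had several rows, so summing rows was not run.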
